A study of Mus musculus with 6 samples.

Results

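Keratins are the proteins of the intermediate filaments of epithelial cells, and the 54 genes described here are all those in the gene count table whose identifier maps to a symbol of the form Krt followed by a number, out of 43629 genes in the table. The related keratin-associated protein genes (Krtap) were left out. Of the 54 genes, 28 encode type I and 26 type II keratins, 27 lie on chromosome 11 and 27 on chromosome 15, and 33 carried enough reads to be tested for a difference between the groups.

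A keratin filament is built from pairs of a type I and a type II protein, and epithelial cells make characteristic pairs. Basal keratinocytes make keratin 5 and keratin 14, cells that leave the basal layer switch to keratin 1 and keratin 10, wounded or hyperproliferative epidermis and keratinocytes in culture make keratins 6, 16 and 17, and single-layered epithelia make keratin 8 and keratin 18. Other members are built into the hair shaft and its inner root sheath, or belong to particular sites such as the esophagus, the cornea or the sole of the foot.

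The libraries came from primary keratinocytes of the epidermis of female mice at postnatal day 3, grown for 5 days at 0.05 mM CaCl2 with 8% serum, a low calcium level in which keratinocytes stay largely undifferentiated. The culture time is that of the labels and methods, and a legend of the study gives a shorter one. The 3 Dnmt1Δ/Δep mice carried loxP-flanked (f) alleles of Dnmt1, the maintenance DNA methyltransferase, and the Cre recombinase under the promoter of Krt5, itself a member of the family, which is active in the basal layer and its descendants. The study lists Dnmt1f/f and Dnmt1f/+ mice, named without Cre, as controls. In a survival plot it also pools mice with Cre and a single deleted copy (Dnmt1Δ/+ep) with them. Which of these genotypes each of the 3 control mice had was not given. Where a control had no Cre, Cre and the deletion cannot be told apart. All were of a mixed C57BL/6J and 129SV background, and poly(A)-selected RNA was sequenced.

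Counts on genes lay between 53433121 and 115526598 per library, so that 3 counts stood for between 0.0254 and 0.0558 CPM (counts scaled to library size). Dnmt1 was at 394, 379 and 324 CPM in control replicates 1, 2 and 3 and at 49.7, 54.3 and 50.7 CPM in Dnmt1Δ/Δep replicates 1, 2 and 3. Same-numbered libraries shared a lane of the sequencer. Among the other suprabasal genes listed below, control replicate 1 was the lowest control library in all but Sbsn (620 CPM against 558 and 639 CPM). The gap was wide in the cadherins Dsg1a (22.5 CPM against 70.4 and 136 CPM) and Dsc1 (16.9 CPM against 58.4 and 148 CPM). It was small against control replicate 2 in Ivl (10.6 CPM against 10.8 and 25.7 CPM). Control replicate 1 is named below beside the keratin values it changed most. In bulk RNA, fewer cells that make a keratin and less of its RNA per cell cannot be told apart.

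Calls were made with the quasi-likelihood test of edgeR over 16829 genes. A gene counted as upregulated in Dnmt1Δ/Δep keratinocytes where its log2 fold change reached 1 and its Benjamini-Hochberg adjusted p did not exceed 0.05, and as downregulated where the log2 fold change was -1 or lower at such a p. Among all genes tested, 6.03% were upregulated and 0.392% downregulated. Of the 33 keratins tested, 7 were upregulated (Krt8, Krt23, Krt4, Krt18, Krt87, Krt42 and Krt7) and 2 downregulated (Krt15 and Krt32), and 24 were not called. Some of the 33 passed the filter on low counts only through the group in which they were high, so that these counts describe the family and test nothing. The adjusted p alone, at any fold, added Krt5 and Krt14 on the lower side (4 keratins lower and 7 higher, beside 1.66% and 7.71% of all genes tested). At an unadjusted p of 0.05, 13 keratins were higher and 8 lower, beside 15.8% and 7.79% of all genes. DESeq2 called 8 keratins upregulated and 5 downregulated, beside 7.63% and 0.69% of the genes to which it gave an adjusted p. In 12 keratins all Dnmt1Δ/Δep libraries lay above all control libraries and in 6 below, beside 18.2% and 11.7% of all genes.

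**Figure D1:**
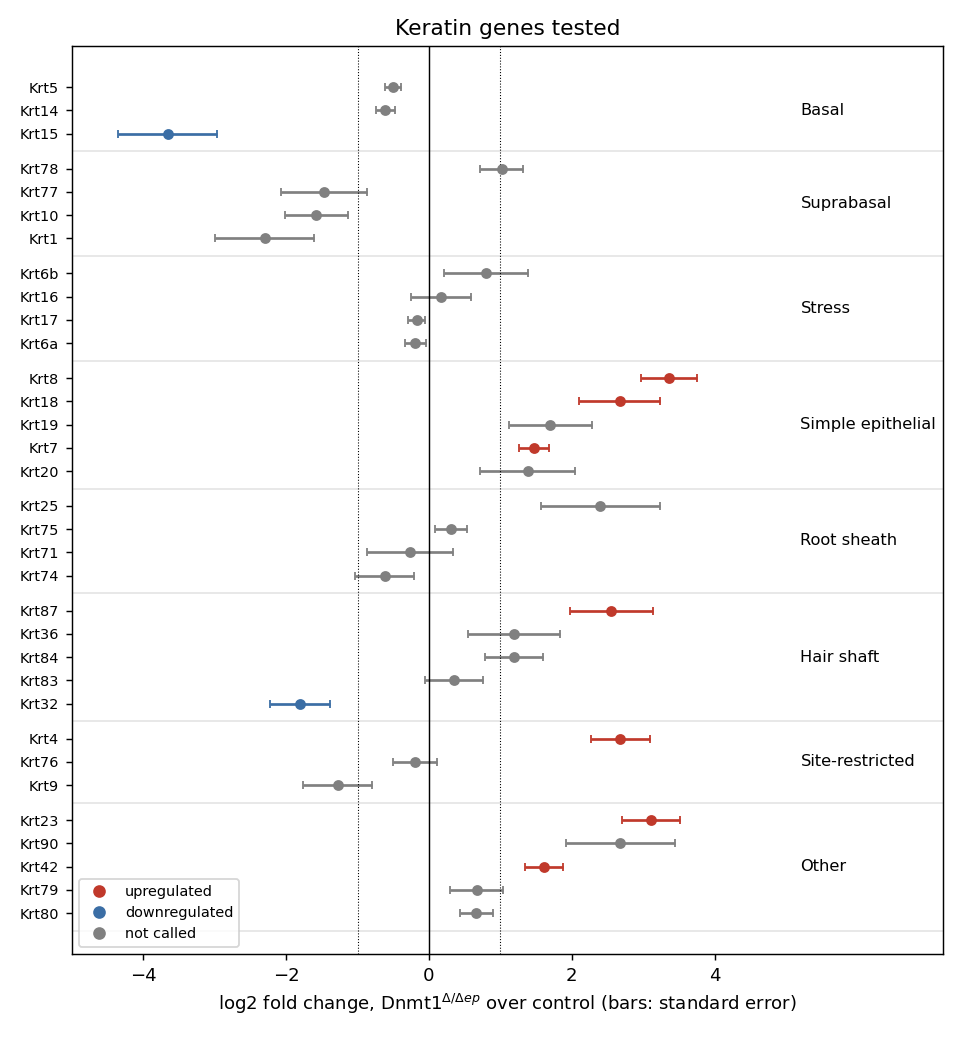
Log2 fold change (x axis, Dnmt1Δ/Δep over control) with its standard error (bars) for each of the 33 keratins tested, grouped by class; red is upregulated, blue downregulated and grey not called, and dotted lines mark a log2 fold change of 1 in either direction. All 5 simple epithelial keratins lie to the right of 0, from 1.38 to 3.36, and all 3 basal keratins lie to the left.

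The promoter sequences below are those of the called keratins with the largest changes that have an entry in the RefSeq promoter table used here (Krt8, Krt23, Krt18 and Krt32), of Krt5 as an abundant keratin that was not called, and of Krt7, which was added after its sequence had been seen. They are shown because the deleted enzyme acts on the dinucleotide CG, which reads the same on both strands and is in capitals. Each runs 5′ to 3′ on the strand of its gene, from 250 bases before to 50 bases after the start of transcription (RefSeq, GRCm38.p6). Krt8 lies on the minus strand at chr15:102004293-102004592, Krt18 on the plus strand at chr15:102027966-102028265 and Krt7 on the plus strand at chr15:101412153-101412452. Krt23 lies on the minus strand at chr11:99493071-99493370, Krt32 on the minus strand at chr11:100088220-100088519 and Krt5 on the minus strand at chr15:101712856-101713155.
Krt8: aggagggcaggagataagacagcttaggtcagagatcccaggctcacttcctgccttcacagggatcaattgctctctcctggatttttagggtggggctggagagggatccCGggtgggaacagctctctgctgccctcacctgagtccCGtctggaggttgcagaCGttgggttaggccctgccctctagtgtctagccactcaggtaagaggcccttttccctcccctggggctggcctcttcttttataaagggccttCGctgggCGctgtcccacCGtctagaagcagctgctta
Krt18: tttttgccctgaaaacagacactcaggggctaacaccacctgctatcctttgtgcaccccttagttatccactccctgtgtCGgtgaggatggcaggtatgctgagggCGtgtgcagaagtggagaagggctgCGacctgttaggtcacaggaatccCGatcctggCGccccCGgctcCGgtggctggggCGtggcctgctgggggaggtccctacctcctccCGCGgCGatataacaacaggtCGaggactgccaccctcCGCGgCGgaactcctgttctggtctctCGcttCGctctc
Krt7: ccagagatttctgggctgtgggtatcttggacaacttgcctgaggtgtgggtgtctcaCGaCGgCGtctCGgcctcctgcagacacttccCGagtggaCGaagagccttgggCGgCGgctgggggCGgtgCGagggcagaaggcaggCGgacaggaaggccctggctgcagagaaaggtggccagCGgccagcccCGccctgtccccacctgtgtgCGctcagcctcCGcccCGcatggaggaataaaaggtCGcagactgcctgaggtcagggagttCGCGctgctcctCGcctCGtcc
Krt23: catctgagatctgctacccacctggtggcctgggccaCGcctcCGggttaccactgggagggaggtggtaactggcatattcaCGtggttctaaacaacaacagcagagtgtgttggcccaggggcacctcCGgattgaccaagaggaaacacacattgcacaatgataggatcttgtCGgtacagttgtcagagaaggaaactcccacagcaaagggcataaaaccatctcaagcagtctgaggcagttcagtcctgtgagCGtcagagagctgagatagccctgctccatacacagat
Krt32: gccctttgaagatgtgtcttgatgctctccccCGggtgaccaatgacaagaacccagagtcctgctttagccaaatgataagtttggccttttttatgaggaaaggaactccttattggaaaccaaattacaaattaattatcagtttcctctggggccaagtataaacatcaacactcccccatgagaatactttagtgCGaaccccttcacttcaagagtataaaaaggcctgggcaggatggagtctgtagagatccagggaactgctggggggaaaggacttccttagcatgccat
Krt5: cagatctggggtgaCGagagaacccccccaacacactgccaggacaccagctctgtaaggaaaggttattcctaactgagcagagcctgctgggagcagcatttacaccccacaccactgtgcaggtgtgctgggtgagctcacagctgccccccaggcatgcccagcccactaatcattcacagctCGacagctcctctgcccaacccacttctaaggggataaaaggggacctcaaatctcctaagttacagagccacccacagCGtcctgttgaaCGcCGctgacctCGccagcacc

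The window of Krt7 held 21 CG and that of Krt18 held 17, whereas those of Krt8, Krt23 and Krt5 held 6 each and that of Krt32 held 2. Of the 54 keratins 36 had at least 1 window (37 windows in all), with a median of 5 CG against 7 in all 32851 windows of the same length. Windows with at least 15 CG made up 5.41% of the keratin windows and 34.6% of all windows. The 2 keratin windows of this kind were those of Krt7 and Krt18, both upregulated simple epithelial keratins, and the next highest, Krt72, held 11. The upregulated Krt42 held 2, as did Krt10 and Krt90, which were not called, so upregulated keratins stood at both ends of the range. DNA methylation was not measured in these libraries.

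Of the keratins of single-layered epithelia 3 of 5 were upregulated in Dnmt1Δ/Δep keratinocytes (Krt8, Krt18 and Krt7) and none downregulated with edgeR (4 higher and none lower at an unadjusted p of 0.05, 4 upregulated with DESeq2), and a median log2 fold change of 1.70 against 0.00 over all genes tested. Krt8 (ENSMUSG00000049382), the type II partner of the pair, was at 1.81, 1.05 and 1.06 CPM in control replicates 1, 2 and 3 and at 19.2, 13.4 and 7.82 CPM in Dnmt1Δ/Δep replicates 1, 2 and 3. Every Dnmt1Δ/Δep library was thus far above every control library, a 10.3-fold rise (log2 fold change 3.36, SE 0.39, adjusted p = 0.0029 with edgeR). Its type I partner Krt18 (ENSMUSG00000023043) went from 27.6, 8.16 and 6.81 CPM to 119, 94.4 and 58.1 CPM. The groups did not overlap, although control replicate 1 held over 3 times the level of the other control libraries, and the rise was 6.36-fold (log2 fold change 2.67, SE 0.57, edgeR adjusted p = 0.029). The Krt18 call was lost when control replicate 2 or 3 or Dnmt1Δ/Δep replicate 1 or 2 was left out (adjusted p between 0.055 and 0.10 in those fits), and the log2 fold change stayed between 2.34 and 3.59 over all 6 fits that left out a library. Of the stretches of 50 bases in Krt8 transcripts, 26.9% also occur in its pseudogene Krt8-ps, so part of its reads cannot be assigned uniquely.

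Krt7 (ENSMUSG00000023039), a type II keratin of glandular and ductal epithelia, had the highest RPKM of the class in control (20.4 on average), and in Dnmt1Δ/Δep keratinocytes it was at 56.6 RPKM beside 62.9 RPKM of Krt18. These RPKM divide Krt7 by a merged exon length of 7049 bases, whereas its principal transcript has 4094. Krt18 has 1437 bases by both, so by the principal transcript Krt7 would stand higher beside Krt18. Krt7 rose from 178, 137 and 116 CPM in the control replicates to 492, 390 and 314 CPM. The change between libraries of the same number was nearly the same in each pair, with log2 ratios of 1.46, 1.51 and 1.44 (log2 fold change 1.47, SE 0.21, edgeR adjusted p = 0.0071). Krt19, a type I keratin without the usual tail domain, went from 2.07, 0.708 and 0.465 CPM to 5.35, 3.15 and 2.21 CPM. Its groups did not overlap either, but the lowest Dnmt1Δ/Δep value was close to control replicate 1, and it was not called (log2 fold change 1.70, SE 0.58, edgeR adjusted p = 0.13). Krt19 was called with the replicate block (adjusted p = 0.011), by DESeq2 (0.018), without the filter on low counts (0.041) and without control replicate 1 (0.015), and its log2 fold change was 2.57 in that last fit and 1.29 when Dnmt1Δ/Δep replicate 1 was left out. Krt20, a keratin of gut epithelium and Merkel cells, was at 0.539, 0.390 and 0.316 CPM and at 2.35, 0.520 and 0.466 CPM, with a log2 fold change of 1.38 (SE 0.67, edgeR adjusted p = 0.27) and of 0.24 without Dnmt1Δ/Δep replicate 1.

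Per length of transcript the simple epithelial keratins stayed far below the basal keratins in both groups. Their summed level was 46.8, 26.3 and 22.1 RPKM (CPM per kilobase of exon) in control and 166, 130 and 90.3 RPKM in Dnmt1Δ/Δep libraries, which do not overlap. The level of Krt18 exceeded that of Krt8 in each library, with a log2 ratio of RPKM of 3.64 ± 0.65 (SD, n = 3) in control and 3.22 ± 0.13 in Dnmt1Δ/Δep keratinocytes, and the groups overlapped in it. By mean RPKM over all genes, with merged exon lengths, Krt18 moved from rank 5076 to rank 727 and Krt7 from rank 2776 to rank 831. Merkel cells, the epidermal cells that make keratins 8, 18 and 20, had 9 further markers on a list, of which 8 were tested and none was called by edgeR (2 higher and 1 lower at an unadjusted p of 0.05, 1 called upregulated by DESeq2 and 1 with the replicate block), with a median log2 fold change of 0.74. Their summed level was between 11.9 and 14 CPM in control and between 10.4 and 13.4 CPM in Dnmt1Δ/Δep libraries, most of it from Cplx2. Without Cplx2 the other 8 summed to 1.98, 1.89 and 2.38 CPM in control and to 4.08, 3.16 and 3.59 CPM in Dnmt1Δ/Δep libraries, higher without overlap. Atoh1, the defining factor of these cells, was between 0.0846 and 0.149 CPM in control and between 0.185 and 0.229 CPM in Dnmt1Δ/Δep libraries. The part of Merkel cells in the simple epithelial values was not tested.

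**Figure D2:**
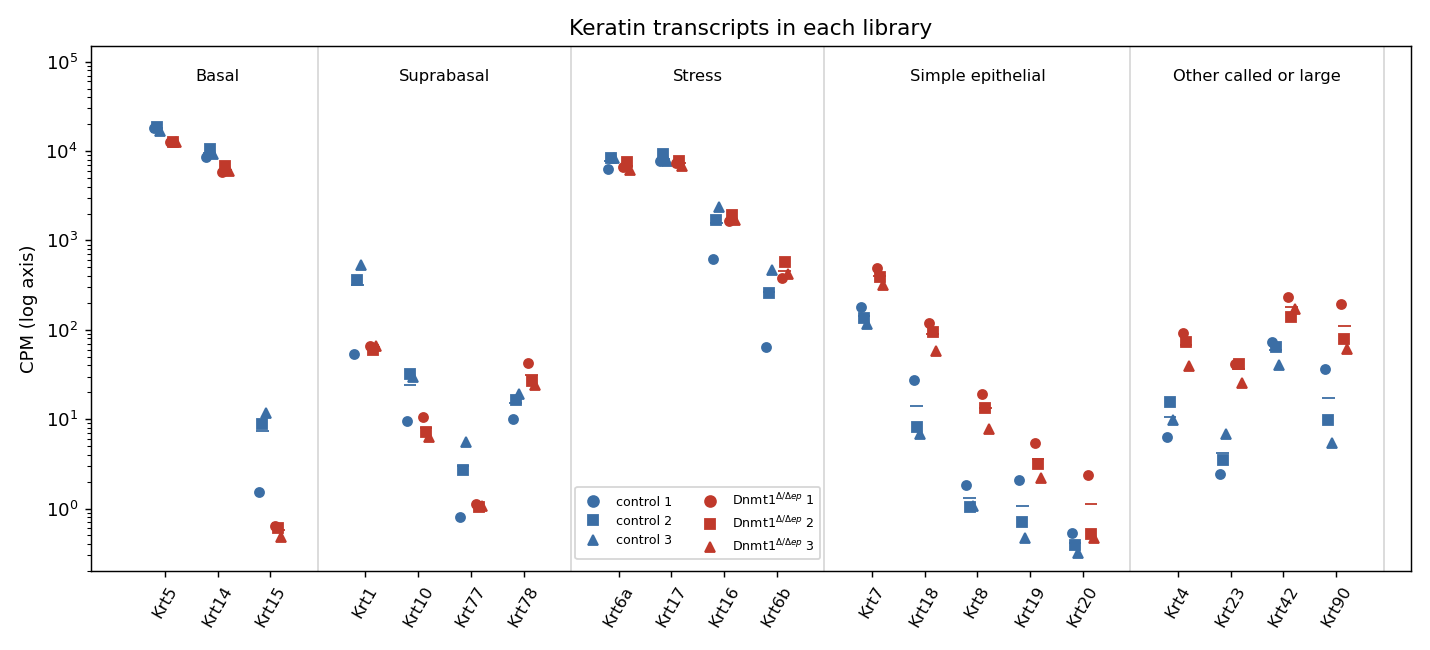
CPM (y axis, log scale) of 20 keratins in each library, control in blue and Dnmt1Δ/Δep in red, with circles, squares and triangles for replicates 1, 2 and 3 and dashes for group means. Krt8, Krt18, Krt7 and Krt19 are separated between the groups in the upward direction, Krt5, Krt14 and Krt15 in the downward direction, and Krt1, Krt10 and Krt77 are low in control replicate 1 as well as in all Dnmt1Δ/Δep libraries.

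The keratins of the basal layer were lower in Dnmt1Δ/Δep keratinocytes, 1 of 3 past both thresholds (Krt15) and the other two, Krt5 and Krt14, past the adjusted p with less than 2-fold changes. Krt5 (ENSMUSG00000061527) was at 18288, 18801 and 16551 CPM in control and at 12782, 12572 and 12610 CPM in Dnmt1Δ/Δep replicates. The Dnmt1Δ/Δep libraries lay closely together and below every control library, 1.41-fold lower (log2 fold change -0.50, SE 0.11, edgeR adjusted p = 0.038). Krt14 (ENSMUSG00000045545), its type I partner, was at 8604, 10514 and 9196 CPM and at 5877, 6716 and 5956 CPM, which was 1.53-fold lower with no overlap (log2 fold change -0.61, SE 0.13, edgeR adjusted p = 0.028). Over the 6 fits that left out a library, the adjusted p ran from 0.03 to 0.14 for Krt5 and from 0.014 to 0.12 for Krt14, and the log2 fold change from -0.55 to -0.46 and from -0.73 to -0.53. Without the filter on low counts the edgeR adjusted p was 0.056 for Krt5 and 0.024 for Krt14. The log2 ratio of RPKM of Krt14 to Krt5 was -0.60 ± 0.14 (SD, n = 3) in control and -0.71 ± 0.12 in Dnmt1Δ/Δep keratinocytes, and the groups overlapped in it.

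Krt15 (ENSMUSG00000054146), a basal type I keratin that also marks the hair follicle bulge, had the largest fall of the family. It was at 1.54, 8.74 and 11.6 CPM in control and at 0.637, 0.613 and 0.483 CPM in Dnmt1Δ/Δep replicates. The fall was 12.7-fold (log2 fold change -3.66, SE 0.69, edgeR adjusted p = 0.019), and control replicate 1 was closer to the Dnmt1Δ/Δep libraries than to the other control libraries. The call was lost without control replicate 2 (adjusted p = 0.065) and without Dnmt1Δ/Δep replicate 1 (0.081), 2 (0.07) or 3 (0.076). The 12 other markers of basal keratinocytes on the list, among them Trp63 and the integrins Itga6 and Itgb4, were all tested and none was called by edgeR or DESeq2 (2 higher and 1 lower at an unadjusted p of 0.05). By the adjusted p alone 1 was lower, the hemidesmosomal collagen Col17a1, with 1897, 1765 and 1604 CPM against 1158, 1094 and 1345 CPM (log2 fold change -0.55, SE 0.12, edgeR adjusted p = 0.035). Their summed level was between 11434 and 12977 CPM in control and between 11664 and 12115 CPM in Dnmt1Δ/Δep libraries.

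Among all genes, Krt5 had the highest mean RPKM in both groups, and Krt14 moved from rank 2 to rank 4. The share of gene reads on keratins was 4.59% ± 0.459 (SD, n = 3) in control and 3.65% ± 0.146 in Dnmt1Δ/Δep keratinocytes. In summed RPKM the family fell from 23309 ± 2019 to 18505 ± 890 with no overlap between the groups. Without Krt5 and Krt14 the sums were 9802 ± 1466 and 9227 ± 674 RPKM and overlapped.

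**Figure D3:**
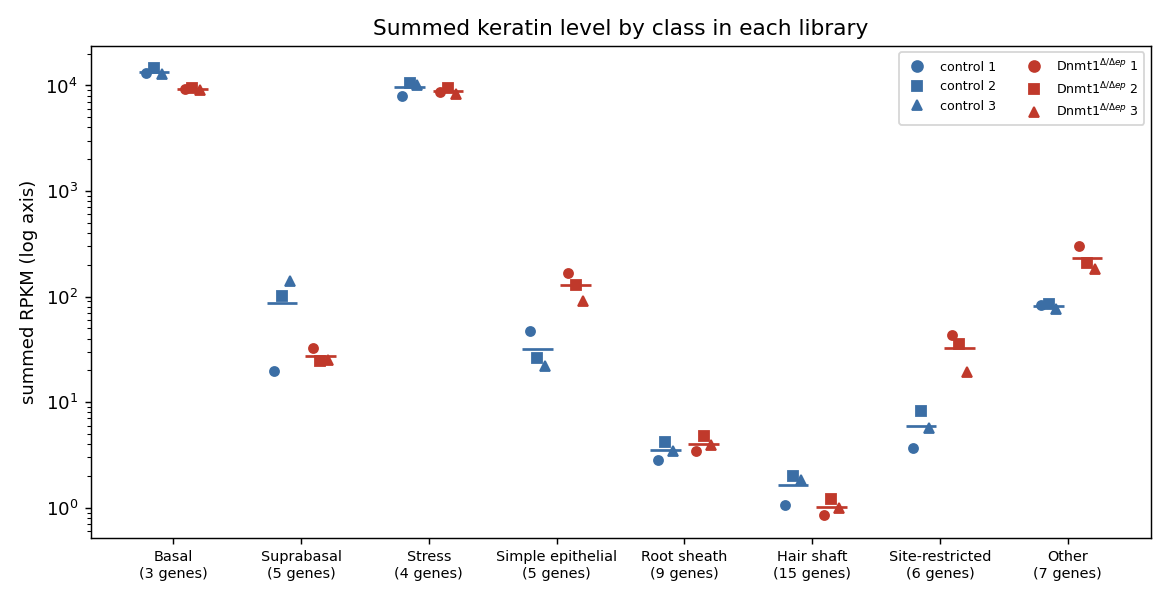
Summed RPKM (y axis, log scale) of the members of each keratin class in each library, control in blue and Dnmt1Δ/Δep in red, with symbols for replicates 1, 2 and 3 and lines for group means; untested members are included. Basal keratins fell from 13511 to 9278 RPKM on average, simple epithelial keratins rose from 31.7 to 129 RPKM, and the suprabasal class overlaps through control replicate 1.

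The suprabasal keratins were at low levels in this culture, and none of the 4 tested was called with edgeR (1 higher and 3 lower at an unadjusted p of 0.05, 3 downregulated with DESeq2). Krt1 (ENSMUSG00000046834), the type II keratin of the spinous layer, was at 53.2, 356 and 530 CPM in control and at 66.1, 59.2 and 65.5 CPM in Dnmt1Δ/Δep replicates. Control replicate 1 lay below all Dnmt1Δ/Δep libraries, and the other control libraries over 5 times above them (log2 fold change -2.30, SE 0.69, edgeR adjusted p = 0.085). Its partner Krt10 (ENSMUSG00000019761) was at 9.63, 32.1 and 29.7 CPM in control and at 10.6, 7.10 and 6.30 CPM in Dnmt1Δ/Δep replicates, so that control replicate 1 fell within the Dnmt1Δ/Δep range and the other control libraries lay above it (log2 fold change -1.58, SE 0.44, edgeR adjusted p = 0.069). Krt77, a type II keratin close to Krt1, was at 0.803, 2.70 and 5.53 CPM and at 1.12, 1.03 and 1.08 CPM (log2 fold change -1.47, SE 0.60, edgeR adjusted p = 0.19).

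Without control replicate 1 these 3 keratins were downregulated, with edgeR adjusted p of 4.6e-04 for Krt1, 0.0033 for Krt10 and 0.012 for Krt77, and with any other library left out none of them was. Without control replicate 3 the log2 fold change was -1.69 for Krt1 and -0.70 for Krt77. Without the filter on low counts edgeR also called Krt1 (adjusted p = 0.0075) and Krt10 (0.0067) downregulated. Krt78, the last suprabasal keratin tested, moved the other way, from 10.1, 16.3 and 19.2 CPM to 42.5, 26.5 and 23.8 CPM. Its groups did not overlap, but the rise was not called (log2 fold change 1.02, SE 0.30, edgeR adjusted p = 0.077). Krt2, the type II keratin of the upper spinous and granular layers, had at most 5 counts in any library. Summed over the class, suprabasal keratins were at 19.8, 101 and 142 RPKM in control and at 32.7, 24.8 and 25.1 RPKM in Dnmt1Δ/Δep libraries. Of the 12 other genes of suprabasal differentiation on the list, Calml3, a calmodulin-like protein, was upregulated (0.962, 3.27 and 5.44 CPM against 24.6, 20.6 and 13.1 CPM, log2 fold change 2.60, edgeR adjusted p = 0.033), and none was downregulated with edgeR or DESeq2 (4 higher and 1 lower at an unadjusted p of 0.05). DESeq2 called 3 of these genes upregulated. Without control replicate 1, edgeR called 2 of them downregulated, and with the replicate block 1.

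The stress keratins came next to the basal keratins in abundance, with a summed level of 9586 ± 1418 RPKM (SD, n = 3) in control and 8802 ± 648 RPKM in Dnmt1Δ/Δep keratinocytes, and none of the 4 was called with edgeR or DESeq2 or passed an unadjusted p of 0.05. Krt17, a type I keratin induced on wounding, was at 7652, 9175 and 7744 CPM in control and at 7301, 7644 and 6859 CPM in Dnmt1Δ/Δep replicates (log2 fold change -0.17, SE 0.12). Krt6a, a type II keratin of the same response, was at 6317, 8436 and 8378 CPM and at 6568, 7465 and 6194 CPM (log2 fold change -0.19, SE 0.15). In neither did the group means differ by more than 0.19 on the log2 scale, and the edgeR adjusted p was 0.48 for Krt17 and 0.53 for Krt6a.

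Krt16, the type I partner of keratin 6, was at 613, 1701 and 2375 CPM in control and at 1642, 1947 and 1685 CPM in Dnmt1Δ/Δep replicates. The spread was in the control group, and the log2 fold change of 0.17 (SE 0.42, edgeR adjusted p = 0.87) became -0.21 without control replicate 1. Krt6b, the near-copy of Krt6a, was at 63.7, 257 and 467 CPM and at 378, 571 and 424 CPM (log2 fold change 0.80, SE 0.59, edgeR adjusted p = 0.49). The control group was again the wider, and the log2 fold change was 0.34 without control replicate 1 and 1.51 without control replicate 3, not called in either fit. The log2 ratio of RPKM of Krt6b to Krt6a was -5.16 ± 1.25 (SD, n = 3) in control and -3.79 ± 0.21 in Dnmt1Δ/Δep libraries, so Krt6b was closer to Krt6a in every Dnmt1Δ/Δep library, by a small margin over control replicate 3 (-4.05). These genes share sequence, since 45.7% of the stretches of 50 bases of Krt6a, 50.1% of those of Krt6b and 37.6% of those of Krt16 occur in another gene, and their counts are uncertain to that extent.

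Among keratins of particular sites, Krt4 (ENSMUSG00000059668), the type II keratin of the esophagus and other moist stratified epithelia, was upregulated 6.43-fold. It was at 6.27, 15.6 and 9.87 CPM in control and at 91.4, 73.7 and 39.4 CPM in Dnmt1Δ/Δep replicates, without overlap (log2 fold change 2.68, SE 0.41, edgeR adjusted p = 0.0087). Its usual partner Krt13 was too low to be tested, with 1, 7 and 1 counts in control and 4, 15 and 17 counts in Dnmt1Δ/Δep libraries. Krt76, a keratin of the palate, was between 1.23 and 2.36 CPM in all libraries (log2 fold change -0.20, SE 0.31). Krt9, the keratin of palms and soles, was at 0.169, 0.185 and 0.168 CPM in control and at 0.0839, 0.0347 and 0.0932 CPM in Dnmt1Δ/Δep libraries. Its groups did not overlap, but it was not called (log2 fold change -1.28, SE 0.48, edgeR adjusted p = 0.16). Krt12 of the cornea and Krt24 had at most 4 counts in any library.

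Krt23 and Krt42 were the upregulated members among 5 tested keratins that fit no class. Krt23 (ENSMUSG00000006777), a type I keratin of glandular epithelia, rose from 2.42, 3.45 and 6.81 CPM to 41.8, 41.4 and 25.5 CPM, 8.65-fold (log2 fold change 3.11, SE 0.41, edgeR adjusted p = 0.0046). Krt42 (ENSMUSG00000053654), the type I gene next to Krt17, rose from 72.3, 64.5 and 40 CPM to 233, 138 and 169 CPM, 3.05-fold (log2 fold change 1.61, SE 0.27, edgeR adjusted p = 0.012). In both genes the lowest Dnmt1Δ/Δep library was well above the highest control library, and both were called in every fit that left out a library, as were Krt7, Krt8 and Krt4.

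Krt90, a type II gene, went from 36.7, 9.73 and 5.40 CPM to 192, 79.8 and 61.6 CPM. Control replicate 1 and Dnmt1Δ/Δep replicate 1, which shared a lane, were each the highest of their group, and the 6.39-fold difference was not called (log2 fold change 2.68, SE 0.76, edgeR adjusted p = 0.073). It was called with the replicate block (adjusted p = 0.003), by DESeq2 (0.043), without the filter on low counts (0.0059) and without control replicate 1 (0.0093), and its log2 fold change was 3.86 in that last fit and 2.03 when Dnmt1Δ/Δep replicate 1 was left out. Krt80, a type II keratin of differentiating epithelia, was at 150, 219 and 253 CPM and at 357, 382 and 246 CPM (log2 fold change 0.66, SE 0.23, edgeR adjusted p = 0.13). Krt79, a keratin of the hair follicle opening and sebaceous duct, was at 14.5, 39.3 and 37.7 CPM in control and at 59.1, 50.9 and 35.6 CPM in Dnmt1Δ/Δep libraries, with a log2 fold change of 0.67 (SE 0.37) and of 0.33 without control replicate 1.

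Most keratins of the hair shaft were near the limit of detection, and Krt32 was the highest of them. Of 15 genes, 10 were too low to be tested, and 1 of the 5 tested was upregulated and 1 downregulated. Krt32 (ENSMUSG00000046095), a type I keratin of the hair cuticle, was at 1.43, 2.89 and 2.49 CPM in control and at 0.386, 0.971 and 0.568 CPM in Dnmt1Δ/Δep replicates. Each Dnmt1Δ/Δep library was below each control library, 3.51-fold on average (log2 fold change -1.81, SE 0.42, edgeR adjusted p = 0.039), and the call was lost without control replicate 2 or 3 or Dnmt1Δ/Δep replicate 1 or 3 (adjusted p between 0.084 and 0.14) and when the filter was a mean RPKM of 1 (0.056). Exons of the opposite-strand gene Gm11571 cover 14.5% of the exons of Krt32, and whether the counting used strand was not given.

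Krt87 (ENSMUSG00000047641), a type II hair keratin, had 1, 4 and 1 counts in control and 9, 13 and 17 counts in Dnmt1Δ/Δep libraries. That is 0.0106, 0.0410 and 0.0186 CPM against 0.151, 0.150 and 0.144 CPM, and it was upregulated with edgeR (log2 fold change 2.55, SE 0.58, adjusted p = 0.036). The call was lost with every library that was left out (adjusted p between 0.066 and 0.12, log2 fold change between 2.15 and 3.30), with DESeq2 (0.065) and without the filter on low counts (0.064), and 36.9% of its stretches of 50 bases occur in another gene. The other hair keratins tested, Krt84, Krt36 and Krt83, were between 0.0211 and 0.555 CPM with log2 fold changes of 1.19, 1.19 and 0.35, and none was called.

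The hair keratins that could not be tested, Krt31, Krt33a, Krt33b, Krt34, Krt35, Krt39, Krt40, Krt81, Krt82 and Krt86, had at most 19 counts in any library, and Krt40 had none. Of the inner root sheath and companion layer keratins 4 of 9 were tested, and none was called with edgeR or DESeq2 (1 higher at an unadjusted p of 0.05). Krt75, the keratin of the companion layer between the sheaths, was the highest of these, at 7.41, 11.3 and 8.88 CPM in control and 9.33, 14.3 and 10.6 CPM in Dnmt1Δ/Δep libraries (log2 fold change 0.31, SE 0.22). The inner root sheath keratins Krt25, Krt71 and Krt74 were between 0 and 0.698 CPM. Krt25 had 1, 9 and 0 counts in control and 11, 17 and 29 counts in Dnmt1Δ/Δep libraries (log2 fold change 2.40, edgeR adjusted p = 0.13, and 4.71 with an adjusted p of 0.043 without control replicate 2, which leaves 1 count in the control group). Krt26 had no count, and Krt27, Krt28, Krt72 and Krt73 had at most 33. The remaining members, Krt88 and Krt222, had at most 5 counts. The count table lists 57 keratin-associated protein genes, which are hair proteins, and 32 of them were at 0 in every library and 1 was tested, without a call.

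On chromosome 11, 2 of 13 tested keratins were upregulated and 2 downregulated, and on chromosome 15, 5 of 20 were upregulated and none downregulated with edgeR (6.03% and 0.392% of all genes tested), although Krt5 there was lower by the adjusted p alone. On chromosome 15 the last genes of the cluster are Krt8 (chr15:101996698-102004482) and Krt18 (chr15:102028180-102032027), a type II and a type I gene side by side, both upregulated, and near the other end the upregulated Krt7 lies beside Krt87, whose call rests on few counts and was lost with each library left out. Krt4 was upregulated while its neighbours Krt76 and Krt79 were not called. Between these ends the tested genes other than Krt4 were not called, and their log2 fold changes ran from -2.30 for Krt1 to 2.68 for Krt90. On chromosome 11 Krt15 (chr11:100131758-100135928), the most strongly lowered keratin, lies beside Krt19 (chr11:100140810-100148665), with a log2 fold change of 1.70, and the upregulated Krt42 lies beside Krt17, at -0.17. Positions are from GENCODE M21 on GRCm38.

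**Figure D4:**
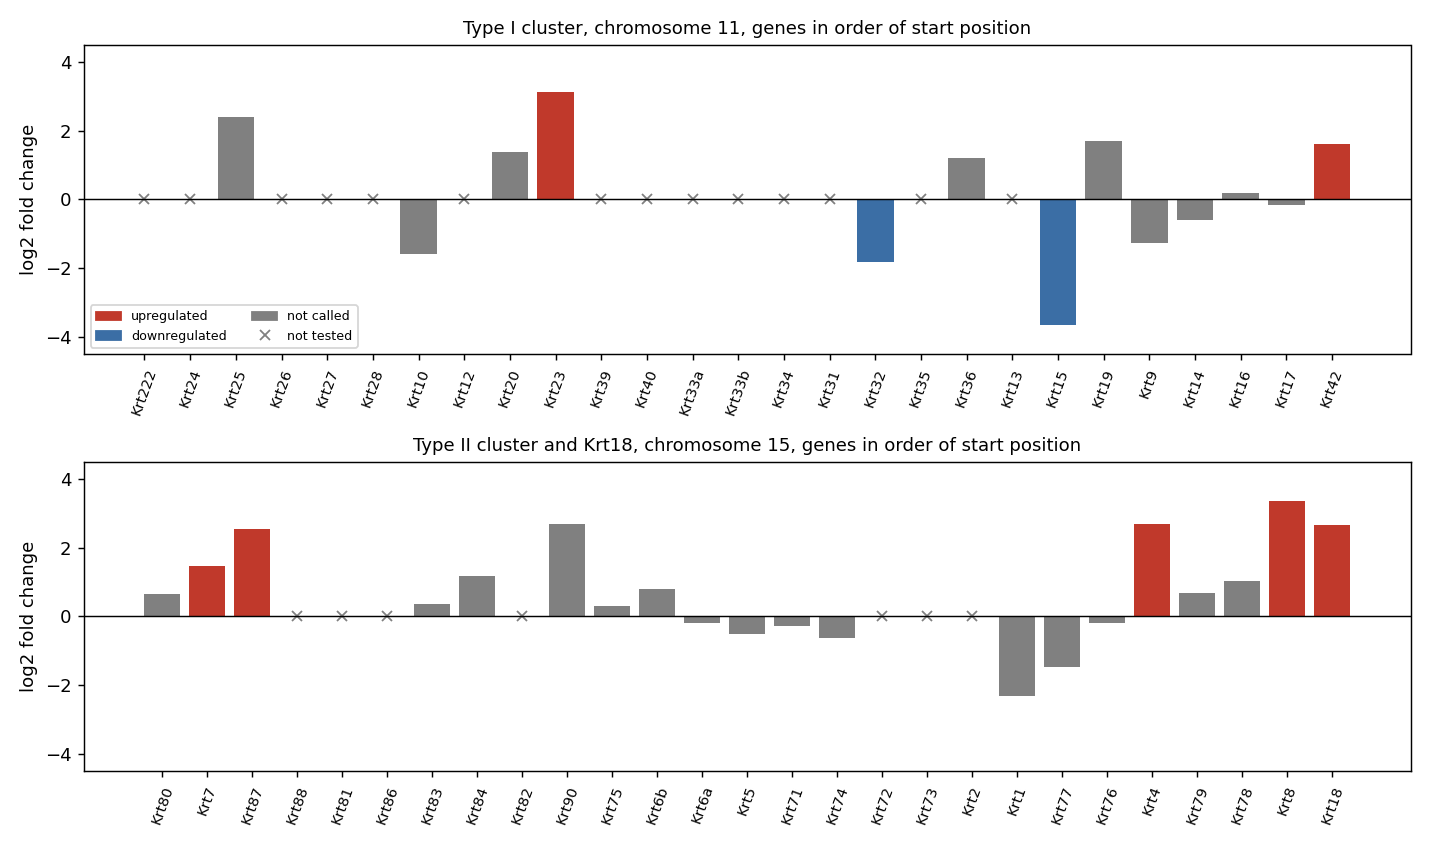
Log2 fold change (y axis, Dnmt1Δ/Δep over control) of the keratins in order of start position on chromosome 11 (top) and chromosome 15 (bottom); x axis positions are ranks, not distances, red is upregulated, blue downregulated, grey not called, and a cross marks a gene not tested. The upregulated Krt8 and Krt18 stand at the right end of the chromosome 15 cluster, with Krt7 near its left end beside Krt87, which had at most 17 counts in any library.

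Genes whose products join keratin filaments to the rest of the cell or regulate them were compared in the same fit. Of 10 plakins and desmosomal plaque genes tested none was called with edgeR or DESeq2 (1 higher and 2 lower at an unadjusted p of 0.05). Dst, which links keratins to hemidesmosomes, was lower at less than 2-fold (192, 151 and 154 CPM against 97.3, 88.5 and 108 CPM, log2 fold change -0.76, SE 0.13, edgeR adjusted p = 0.013). Pkp2, a plakophilin of the desmosomal plaque, was higher at less than 2-fold (5.02, 4.14 and 4.91 CPM against 8.35, 9.66 and 6.68 CPM, log2 fold change 0.81, SE 0.19, edgeR adjusted p = 0.04). Of 6 filaggrin-family genes tested, Tchhl1 was upregulated (log2 fold change 2.25, edgeR adjusted p = 0.023). Of 11 other intermediate filament genes tested, 3 were upregulated and none downregulated with edgeR (6 higher and none lower at an unadjusted p of 0.05, 4 upregulated with DESeq2). Of all genes, 6.03% were upregulated with edgeR, 15.8% higher at that unadjusted p and 7.63% upregulated with DESeq2. The 3 were the neural genes Nes (log2 fold change 2.09) and Nefh (1.73) and the lens gene Bfsp1 (3.06). Bfsp1 was at 2.05, 1.79 and 1.82 CPM in control and at 3.99, 22.3 and 21 CPM in Dnmt1Δ/Δep libraries, with replicate 1 far below the others. Vimentin (Vim), the filament of mesenchymal cells, was at 64.2, 87.9 and 51.7 CPM and at 197, 85.7 and 197 CPM (log2 fold change 1.23, edgeR adjusted p = 0.066).

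Of 16 epidermal transcription factors tested, Fosl1, an AP-1 subunit, was upregulated (16.7, 8.07 and 8.32 CPM against 38, 33.1 and 21.6 CPM, log2 fold change 1.48, edgeR adjusted p = 0.037). Gata3, a factor of epidermal and hair differentiation, was lower at less than 2-fold (log2 fold change -0.79, edgeR adjusted p = 0.015). None of 10 regulators of hair keratins was called with edgeR or DESeq2 (2 higher and 3 lower at an unadjusted p of 0.05). The upregulated counts of these lists depended on single libraries. With a library left out, edgeR called between 0 and 2 of the filaggrin family, between 0 and 3 of the suprabasal genes, between 0 and 1 of the transcription factors and between 1 and 4 of the other filament genes, and without control replicate 2 the first 3 of these lists had no upregulated gene.

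Markers of other cells moved with the groups in part. The summed level of 8 melanocyte markers was between 228 and 582 CPM in control and between 699 and 927 CPM in Dnmt1Δ/Δep libraries, with none called by edgeR, 5 higher at an unadjusted p of 0.05 and 2 called by DESeq2. That of 11 leukocyte markers was between 0.349 and 1.02 CPM and between 2.58 and 4.51 CPM, with 3 tested, Csf1r and Itgam upregulated (both calls were lost without Dnmt1Δ/Δep replicate 1 or 3) and 1 at 0 in every library. The leukocyte markers not tested had at most 12 counts in any library. Ptprc, the highest of them, had 0, 0 and 2 counts in control and 12, 1 and 0 in Dnmt1Δ/Δep libraries. For 6 endothelial markers the summed level was between 6.83 and 17.9 CPM and between 16.6 and 23.8 CPM, with 5 tested and Pecam1 and Cdh5 upregulated (without Kdr, between 4.08 and 4.56 CPM and between 13.5 and 17.4 CPM), and for 9 fibroblast markers between 16.2 and 35.3 CPM and between 17.7 and 70.9 CPM, with none called by edgeR or DESeq2 (3 higher at an unadjusted p of 0.05). The endothelial markers Kdr (log2 fold change -0.16), Tek (0.58) and Vwf (0.68) were not called. Emcn had 26, 5 and 0 counts in control and 19, 0 and 3 in Dnmt1Δ/Δep libraries. The part of these cell types in the keratin values was not tested.

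**Figure D5:**
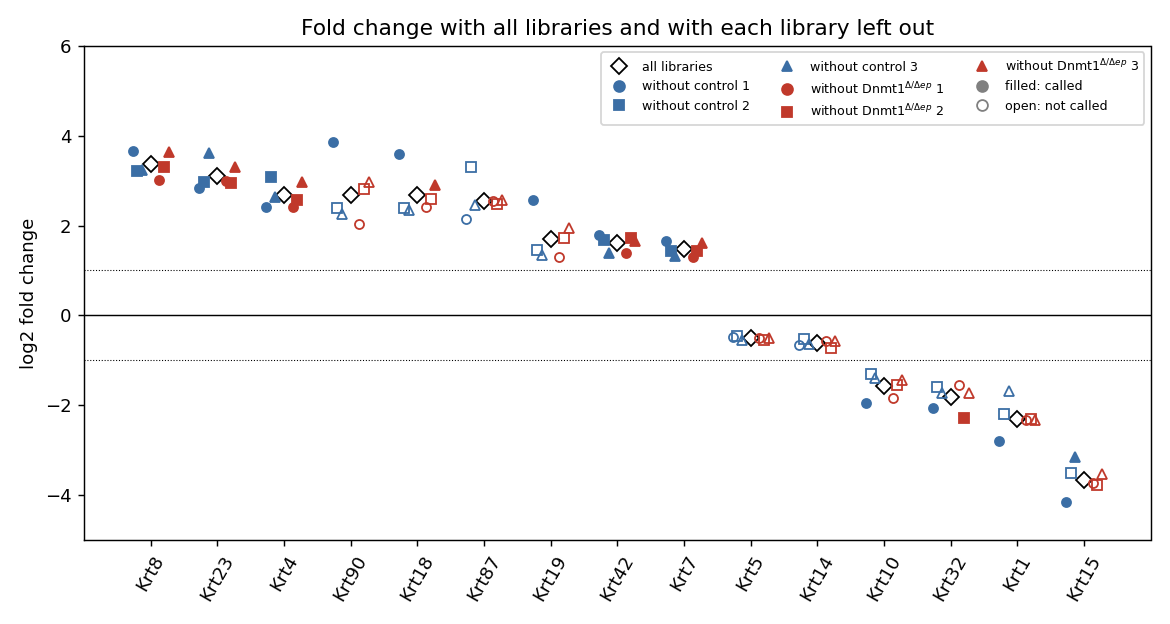
Log2 fold change (y axis) of 15 keratins with all libraries (open diamonds) and with each library left out in turn, by colour and symbol of the library left out; filled symbols were called and open ones were not. Krt8, Krt23, Krt4, Krt42 and Krt7 are filled throughout, whereas Krt1, Krt10, Krt19 and Krt90 are filled only without control replicate 1.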

How the data were processed

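RNA of 3 control and 3 Dnmt1Δ/Δep keratinocyte cultures was compared, grouped by the sample labels. The authors trimmed the reads, discarded ribosomal ones, aligned with STAR and counted reads of unique position per gene with htseq-count. The deposited values are raw counts, on GRCm38 per the labels. Entries that name no gene (8.73% to 12.9% of the counted reads) were left out. The repeat counts and the authors' tables of comparisons (mean counts, fold changes and p-values) were not used here. Symbols were found for 42462 of 43629 identifiers.

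The whole table was tested with edgeR 4.0.16 (quasi-likelihood, TMM factors between 0.980 and 1.02, filterByExpr with minimum counts of 10 and 15) in R 4.3.3, without a block, with Benjamini-Hochberg adjustment. CPM use library size times TMM factor, and RPKM further divide by merged exon length (GENCODE M21). DESeq2 1.42.0 and 11 other settings were tried. Same-numbered replicates shared a lane in the file headers, and their deviations from the group means correlated (0.46, 0.36 and 0.30). Pairs of litters or cultures were not given, so a lane effect and a pairing of the samples cannot be told apart.

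Classes, lists and members were chosen with earlier results of these data known. Every keratin tested is named. Values per library are given for called members, the 12 highest in RPKM and the main filament partners, and of the lists called genes and up to 4 others are named. A count of 0 allows up to 3 counts (counting error only), and p-values measure the spread between these cultures.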

Additional observations from a re-analysis of the deposited data

How the results depend on the processing

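Krt7, Krt8, Krt4, Krt23 and Krt42 were called upregulated under all 12 other settings. The number of upregulated keratins, 7 in the report, was 9 with the replicate block, 8 with DESeq2 or without the filter on low counts, 6 with a mean RPKM of at least 1, and between 5 and 8 with a library left out. The number of downregulated keratins, 2 in the report, was 2 with the replicate block, 5 with DESeq2, 4 without the filter (adding Krt1 and Krt10), 1 with a mean RPKM of at least 1 (losing Krt32), 4 by the adjusted p alone and between 0 and 5 with a library left out. It was 5 without control replicate 1, which adds Krt1, Krt10 and Krt77, and 0 without control replicate 2 or Dnmt1Δ/Δep replicate 1 or 3; the cause was not tested. The replicate block changed the calls of Krt19 and Krt90 (above) and of no other keratin. With a library left out, the log2 fold change of Krt16 ran from -0.21 (without control replicate 1) to 0.60 and that of Krt71 from -1.10 to 0.08 (without Dnmt1Δ/Δep replicate 1), neither called. Using the principal transcript's length, an alternative chosen after seeing the data, the summed simple epithelial level was 46.6 against 170 RPKM and the basal level 13701 against 9402 RPKM. Most hair shaft and inner root sheath keratins had too few counts to be tested at this depth.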
